A study of Mus musculus with 22 samples.

Results

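RNA bound to astrocyte ribosomes was compared with the RNA left unbound in the same pieces of injured spinal cord from wild-type mice. Of the 22 libraries of the series, 8 belong to this comparison: 4 haemagglutinin (HA) immunoprecipitates, called HA IP, and 4 flow-through libraries. They came from 4 animals, numbered 9935, 9874, 9843 and 9596, and the animal number in each library's label paired an HA IP with its flow-through. All were young adult female mGFAP-Cre-RiboTag mice with a severe crush injury of the cord at thoracic level 10, and the central 3 mm of the lesion was taken 14 days later. The other libraries come from 4 uninjured mGFAP-Cre-RiboTag mice (8 libraries) and from 3 mice that also carry the STAT3-LoxP allele and had the same injury (6 libraries). Every group, controls included, carries mGFAP-Cre and RiboTag.

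RiboTag is an allele that adds an HA epitope to a ribosomal protein in cells where Cre has acted, so that an antibody to HA pulls down their ribosomes with the messenger RNA being translated. Here Cre was driven by a mouse GFAP promoter, so any cell in which that promoter had been active could carry the tag, and the flow-through could still hold RNA from tagged cells that was not captured. Astrocytes take up glutamate and potassium, supply lipid to neurons, and after injury raise the intermediate filament Gfap and form a border around the lesion core, which fills with microglia and blood-derived macrophages. In bulk RNA, fewer cells of a type and less RNA per cell cannot be told apart.

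Most counts in these 8 libraries fell in 3 rows that collect ribosomal RNA reads, Rn45s, Lars2 and Mir6236, which held between 91.4% and 98.3% of all counts. Outside them, HA IP libraries had 620265 to 2691494 counts and flow-through libraries 91626 to 615302. The 4 HA IP libraries were 3.46 to 6.77 times as deep as the flow-through of the same animal. Levels below are in CPM, each count as a rate of its library total, taken over the counts outside these rows and scaled by the trimmed mean of M values (TMM), and a floor of 3 counts lies at 4.88 to 32.7 CPM in flow-through. Animal 9935 had the shallowest libraries of both fractions.

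The 2 fractions of an animal shared counts. In animals 9935, 9874, 9843 and 9596, HA IP had fewer counts than the flow-through of the same animal in 0, 1, 2 and 1 genes, and never by more than 1 count. Against the flow-through of each other injured wild-type animal, the same HA IP libraries had fewer counts in 342 to 7274 genes. Among genes with at least 5 flow-through counts, HA IP held exactly the flow-through count in 229 of 4038, 291 of 7415, 320 of 7514 and 594 of 9312 genes of the same animal, or 3.92% to 6.38%. The other 7 animals of the series had the same feature, with HA IP below the flow-through in 0 to 3 genes. How the columns came to share counts is not given in the sources used here.

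**Figure D1:**
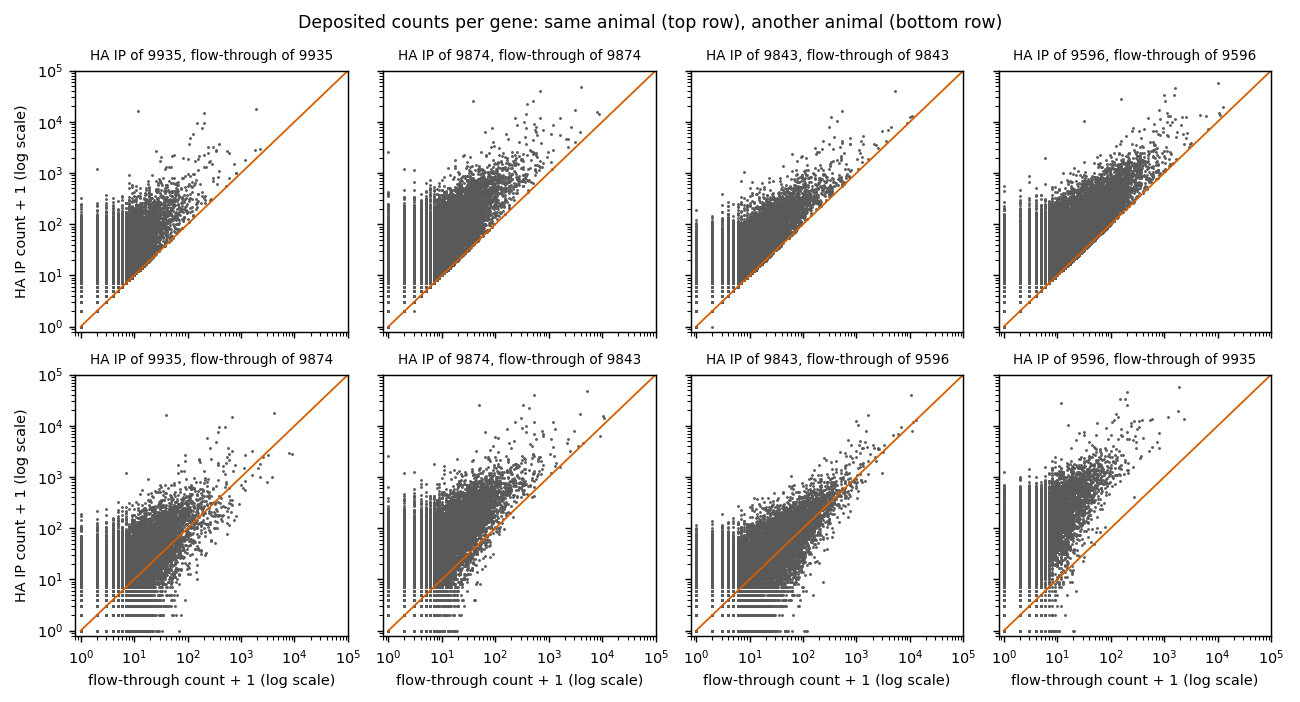
Deposited counts of each gene plus 1, flow-through on the horizontal and HA IP on the vertical log axis, 1 point per gene, with the line of equal counts. In the top row both fractions come from the same animal and points stop at the line. In the bottom row the flow-through comes from another animal and points lie on both sides of it.

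With such counts, a gene absent from the bound RNA cannot appear lower than the ratio of the 2 library sizes. The lowest log2 difference this allows within an animal was -2.48, -2.67, -1.82 and -2.11 in the order of animals above, and the lowest called value was -2.28. Counts of calls and many of the values below are therefore also given for a remainder, the HA IP count minus the flow-through count of the same animal, with values under 0 set to 0. Values with no mention of it are as deposited. The test used below takes the counts of the 2 fractions as independent within an animal, which shared counts are not. The effect of this on standard errors and p-values as deposited was not tested. In the remainder the lowest called difference was -8.59. The remainder was chosen after the counts had been seen.

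Of 7666 genes tested, 1115 (14.5%) differed between HA IP and flow-through at an adjusted p under 0.05 in edgeR's quasi-likelihood test with animal as a block. Of these, 584 (7.62%) were higher in HA IP and 531 (6.93%) were lower. With the remainder, 1033 of 7288 genes (14.2%) were called, 458 (6.28%) higher and 575 (7.89%) lower. Both calculations called 453 genes higher and 493 lower among the 7245 genes tested in both, and none in opposite directions. Apart from scaling, taking off the flow-through counts keeps the direction within an animal, so the lack of opposite calls was largely fixed in advance. Without animal 9843 the deposited counts gave 545 calls, and without animal 9874 they gave 596; without animal 9596 the lower genes numbered 313. With the remainder the higher genes numbered 295 without animal 9874 and 278 without animal 9843, and the total without animal 9843 was 661. Without the animal block the deposited counts gave 565 and the remainder gave 948. In 1064 genes (13.9%) the 4 HA IP levels did not overlap the 4 flow-through levels.

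**Figure D2:**
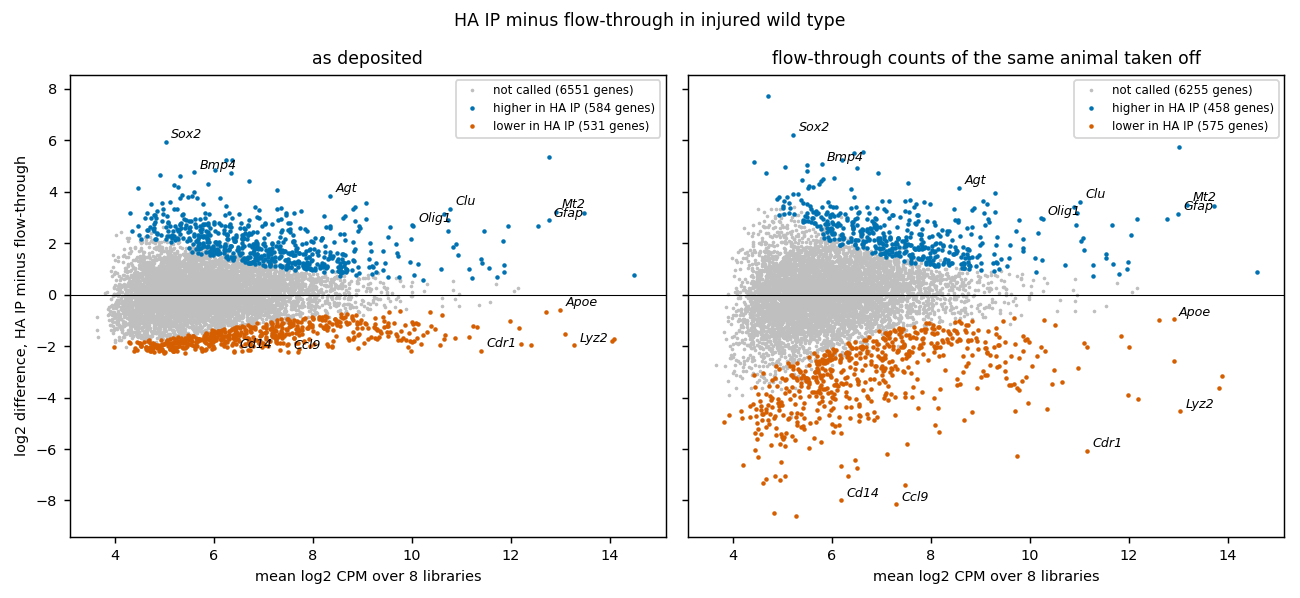
Log2 difference of HA IP minus flow-through against the mean log2 CPM over the 8 libraries, 1 point per gene tested, with called genes in colour. With deposited counts (left) the lower genes end in a flat edge near the lowest called value of -2.28, and with the remainder (right) they reach -8.59.

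Gfap, the intermediate filament protein that defines reactive astrocytes, led the astrocyte markers in level. In HA IP it stood at 17467, 13034, 9586 and 9079 CPM in animals 9935, 9874, 9843 and 9596, against 1997, 1439, 1422 and 1617 CPM in flow-through. Every HA IP library was above every flow-through library. The log2 difference was 2.89 ± 0.15 (standard error, SE; adjusted p = 4.17e-09, edgeR). With the remainder it was 3.15 ± 0.20 (adjusted p = 4.1e-10).

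The other 3 genes that mark astrocytes here were also higher in HA IP in each animal. Gja1, which encodes the gap junction protein connexin 43, had 369, 194, 230 and 157 CPM in HA IP and 60.5, 45.0, 16.6 and 24.7 CPM in flow-through, a log2 difference of 2.74 ± 0.39 (adjusted p = 0.000166, edgeR) and of 3.01 with the remainder. Clu, the secreted chaperone clusterin, had 3749, 4432, 2181 and 2350 CPM in HA IP and 313, 326, 206 and 379 CPM in flow-through. Its log2 difference was 3.33 ± 0.21, and 3.61 with the remainder. Agt, the precursor of angiotensin peptides, had 859, 753, 369 and 356 CPM against 100.8, 63.7, 6.65 and 24.7 CPM. Its difference was 3.85 ± 0.35, and 4.16 with the remainder. None of the 3 overlapped between fractions, and their flow-through levels varied more among animals than those of Gfap.

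Promoters of Gfap and Agt are shown because both hold the letters TTCNNNGAA, the core bound by STAT proteins, of which STAT3 is the factor removed in 1 group of the series. Each window shown runs from 250 bases before to 30 bases after the RefSeq transcription start on GRCm38.p6. The Gfap window is chr11:102897171-102897450 and the Agt window chr8:124569677-124569956, both on the minus strand. Capitals mark the match.
Gfap: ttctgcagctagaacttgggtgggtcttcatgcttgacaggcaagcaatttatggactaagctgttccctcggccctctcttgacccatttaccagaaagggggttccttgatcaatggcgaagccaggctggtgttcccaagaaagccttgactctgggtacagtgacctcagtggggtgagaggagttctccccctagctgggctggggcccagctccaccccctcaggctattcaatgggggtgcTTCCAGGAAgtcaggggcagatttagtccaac
Agt: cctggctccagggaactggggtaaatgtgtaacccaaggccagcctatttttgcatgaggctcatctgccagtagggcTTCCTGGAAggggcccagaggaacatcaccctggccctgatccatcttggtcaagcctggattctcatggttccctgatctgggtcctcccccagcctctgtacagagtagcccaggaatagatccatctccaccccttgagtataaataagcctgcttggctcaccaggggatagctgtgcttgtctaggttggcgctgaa
The match TTCCAGGAA in Gfap begins 2 bases before the start, and TTCCTGGAA in Agt begins 172 bases before it. TTCNNNGAA reads the same on both strands and lies in 2288 of 27025 promoter windows (8.47%). Among astrocyte identity genes with a window it lies in 5 of 27, namely Gfap, Agt, Slc1a3, Ntsr2 and Acsbg1. In microglia and macrophage genes it lies in 0 of 15. These shares, and those of the other motifs below, were counted over full reference windows. Those may run further past the start than the parts shown. These motifs and genes were picked after several motifs had been searched, and a match is a string of letters, not a bound site.

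A list of 35 astrocyte identity genes was higher in HA IP almost throughout. Of 34 tested, 29 were called higher and 0 lower, against 7.62% and 6.93% of all genes, and the median log2 difference was 2.19 against 0.06 over all genes tested. Those shares of all genes also apply to the deposited counts of each list below. With the remainder 28 were called higher and the median was 2.46 against 0.01. Higher in all 4 animals were 30 of the 34, while 17.2% of all genes tested were so. Leaving out 1 animal at a time left 24 to 29 called higher.

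Transport genes of astrocytes were among those higher. Slc1a2, the main glutamate transporter, stood at 3597, 2743, 2453 and 3255 CPM in HA IP and at 827, 645, 601 and 978 CPM in flow-through, with no overlap and a log2 difference of 1.99 ± 0.17 (2.22 with the remainder). Slc4a4, a sodium bicarbonate cotransporter, differed by 2.00 ± 0.25. Slc38a3, a glutamine exporter, differed by 2.20 ± 0.61 (adjusted p = 0.0228, edgeR), but it lost its call without animal 9935 or 9874. Of 13 glutamate and ion handling genes tested, 9 were called higher and 0 lower, with a median of 1.58, and of 1.82 with the remainder. Leaving out 1 animal left 7 to 10.

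Slc1a3, the other astrocyte glutamate transporter, was not called. It had 30.8, 102, 79.1 and 44.1 CPM in HA IP and 30.3, 48.7, 33.2 and 71.0 CPM in flow-through, with overlapping levels and a difference of 0.42 ± 0.51 (adjusted p = 0.655, edgeR). Glul, Cldn10, Lcat and Dio2 were the other identity genes tested and not called.

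Fgfr3, a fibroblast growth factor receptor of astrocytes, stood at 432, 285, 479 and 176 CPM in HA IP and at 0, 26.2, 29.9 and 64.8 CPM in flow-through, a difference of 3.19 ± 0.51. Aldoc, the brain aldolase, differed by 2.47 ± 0.16 and Acsbg1, a fatty acid activating enzyme, by 2.19 ± 0.34. All 3 were called with the remainder too, at 3.60, 2.73 and 2.47.

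**Figure D3:**
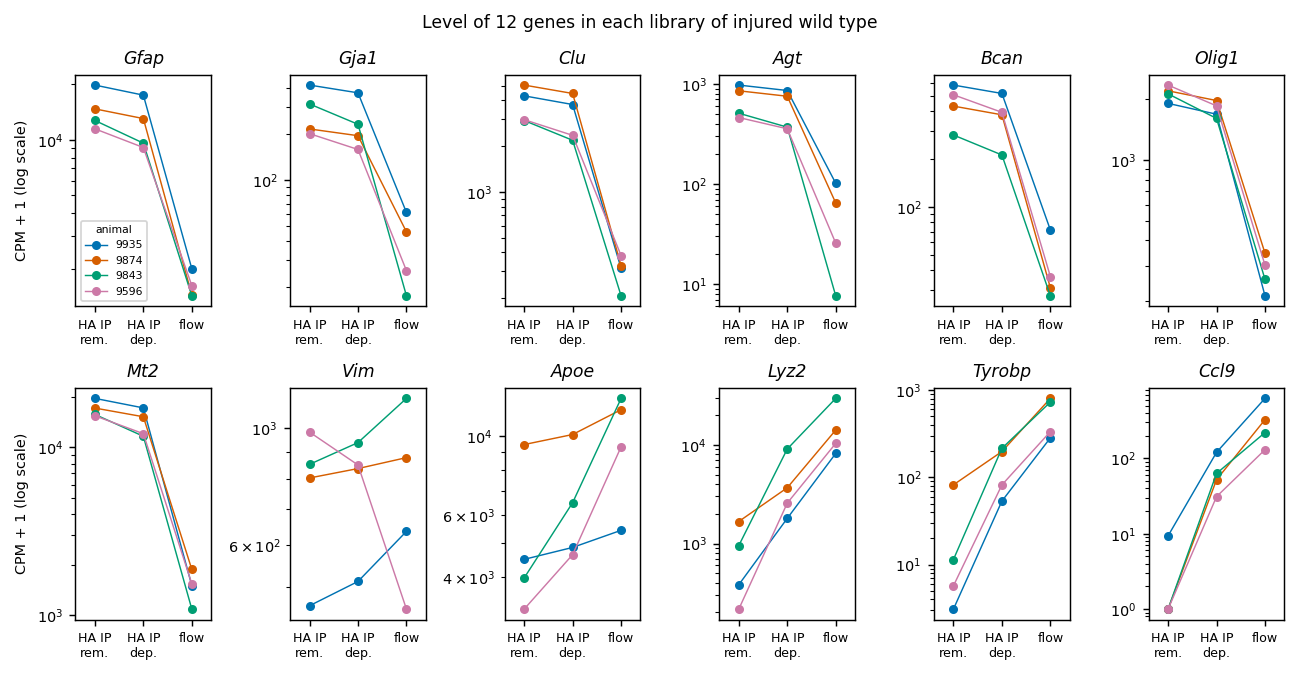
Level of 12 genes in CPM plus 1 on log axes, 1 line per animal, for the HA IP remainder (rem.), HA IP as deposited (dep.) and flow-through (flow). Gfap, Gja1, Clu, Agt, Bcan, Olig1 and Mt2 fall from left to right in all 4 animals, Lyz2, Tyrobp and Ccl9 rise in all 4, and the lines of Vim go both ways.

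Sox2, Id3 and Id4 belong to a list of genes of radial glia and progenitors, of which 5 of 8 tested were called higher and 0 lower, with a median of 1.58 (1.82 with the remainder). Sox2, a transcription factor of neural stem cells, had 27.1, 66.5, 35.8 and 67.7 CPM in HA IP, and 0, 3.75, 0 and 0 CPM in flow-through. The 355 HA IP counts stood against 1 flow-through count, a log2 ratio of 6.26 with an exact 95% interval for counting error of 3.77 to 11.6. Its adjusted p was 0.000844 (edgeR). Sox2 lies within a longer noncoding gene, and which strand was read is not given in the sources used here. Id3, an inhibitor of basic helix-loop-helix factors, had 863, 588, 370 and 322 CPM against 272, 75.0, 56.5 and 32.4 CPM, a difference of 2.66 ± 0.31. Its relative Id4 differed by 2.19 ± 0.59 but overlapped, with 121 CPM in the flow-through of animal 9935, and lost its call without animal 9874, 9843 or 9596. Without animal 9874 or 9843, 3 of the list were called.

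Vim, the filament protein that assembles with Gfap and is also made by many other cell types, did not follow Gfap. Its levels were 510, 836, 937 and 849 CPM in HA IP and 635, 877, 1136 and 452 CPM in flow-through. HA IP was the lower in 3 animals and the higher in animal 9596, and the difference was 0.07 ± 0.23 (adjusted p = 0.888, edgeR), or -0.208 without animal 9596.

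Of 13 genes raised in many forms of astrocyte reactivity, 8 were tested and 5 called higher: Gfap, S1pr3, Hspb1, Timp1 and Serpina3n. Their median was 1.76, and 1.97 with the remainder, in which 4 were called. Timp1, an inhibitor of matrix metalloproteases, had 581, 553, 334 and 266 CPM in HA IP and 343, 75.0, 29.9 and 81.8 CPM in flow-through, a difference of 2.11 ± 0.38 (adjusted p = 0.00131, edgeR). The single high flow-through value was that of animal 9935. Hspb1, a small heat shock protein, had 555 CPM in the flow-through of animal 9935 and 40.1 to 48.7 CPM in the others, against 284 to 530 CPM in HA IP. It differed by 2.21 ± 0.47 and lost its call without animal 9843, when 3 of the list were called. S1pr3, a receptor for sphingosine 1-phosphate, differed by 2.34 ± 0.65 and was not called with the remainder (adjusted p = 0.0506).

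Stat3 itself was not called. It had 367, 292, 142 and 183 CPM in HA IP and 90.8, 139, 133 and 270 CPM in flow-through, with the order reversed in animal 9596 and a difference of 0.55 ± 0.37 (adjusted p = 0.373, edgeR). In the scaling of all 22 libraries its HA IP level was 163 to 402 CPM in injured wild type and 48.7 to 80.6 CPM in the STAT3-LoxP group. Uninjured wild type, which keeps Stat3, had 79.8 to 95.5 CPM, and the flow-through ranges of the injured groups overlapped (83.3 to 292 and 70.2 to 139 CPM). These counts are over the whole gene and do not check the deletion. Of 12 genes of the STAT3 cytokine response tested, 1 was called higher (Timp1) and 1 lower (Il6ra, an interleukin 6 receptor), with a median of 0.06, that of all genes. These counts are near the share of all genes tested, of which 7.62% were called higher and 6.93% lower. Il6ra differed by -1.43 ± 0.46 (adjusted p = 0.0484) and lost its call whichever animal was left out.

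Among genes assigned to neuroinflammatory (A1) and ischaemic (A2) astrocytes, calls went both ways. Of 7 A1 genes tested, Gbp2 was higher and H2-T23 and H2-D1 were lower, with a median of -0.58. Of 6 A2 genes tested, Tgm1 was called higher and Cd14 lower, with a median of 1.05 and 5 estimates above 0. Of all genes tested, 7.62% were called higher and 6.93% lower. Tgm1, a transglutaminase, had 27.1, 221, 51.8 and 49.8 CPM in HA IP and 0, 18.7, 6.65 and 7.71 CPM in flow-through, a difference of 3.16 ± 0.60 (adjusted p = 0.00213, edgeR). Gbp2, an interferon-induced GTPase, differed by 2.58 ± 0.61, but its call was lost without animal 9874 or 9843. H2-T23, a class Ib molecule, lost its call without animal 9935, 9874 or 9843. H2-D1, a class I histocompatibility molecule, had 241, 413, 254 and 211 CPM in HA IP and 575, 978, 615 and 534 CPM in flow-through, a difference of -1.28 ± 0.21 and of -2.08 with the remainder. Cd14, the coreceptor for bacterial lipopolysaccharide, is also on the list of macrophage genes.

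Chondroitin sulfate proteoglycans, matrix proteins known for blocking axon growth after injury, were mostly higher in HA IP. Of 6 core proteins tested, Bcan, Cspg5, Ncan and Ptprz1 were called higher and 0 lower, with a median of 1.81 (2.04 with the remainder). Bcan, or brevican, had 516, 378, 211 and 392 CPM in HA IP and 70.6, 29.98, 26.6 and 35.5 CPM in flow-through. The fractions did not overlap, and the difference was 3.27 ± 0.33 (adjusted p = 5.46e-06, edgeR). Cspg5, or neuroglycan C, differed by 2.43 ± 0.42, Ncan, or neurocan, by 2.15 ± 0.49 and Ptprz1, a receptor phosphatase, by 1.46 ± 0.37. Ncan lost its call without animal 9874 or 9843, and Ptprz1 without animal 9874, when 2 of the 6 were called.

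Vcan and Cspg4, the cores most tied to fibroblasts, precursors and pericytes, were not called. Vcan, or versican, had 47.0, 152, 95.2 and 143 CPM in HA IP and 50.4, 78.7, 49.8 and 170 CPM in flow-through. Cspg4, or NG2, had 53.4 to 85.7 CPM in HA IP and 0, 60.0, 120 and 55.5 CPM in flow-through. Their differences were 0.40 ± 0.40 and 0.40 ± 0.55, and that of Cspg4 was -0.037 without animal 9935, whose flow-through held no count. Among 9 tested enzymes that build chondroitin sulfate chains, 0 were called in either direction by edgeR and 5 had an unadjusted p under 0.05, while DESeq2 called 1 higher and 1 lower. Chpf, a chain polymerising factor, came closest at 1.19 ± 0.41 (adjusted p = 0.065, edgeR).

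Genes that inhibit and genes that favour axon growth were both found among those higher in HA IP. Of 17 inhibitory genes tested, 7 were called higher and 0 lower (median 1.24), and with the remainder 5 of 16. Besides the proteoglycans these included Tnr, or tenascin R, with 99.5 to 144 CPM in HA IP and 26.6 to 37.5 CPM in flow-through (difference 1.91 ± 0.43), and Mag, a myelin protein. Without animal 9843 the inhibitory count was 2, and without animal 9874 it was 3. Of 14 permissive genes tested, 6 were higher and 2 lower. Fgf2, a growth factor, had 215, 65.9, 39.6 and 74.1 CPM in HA IP and 0, 11.2, 9.97 and 7.71 CPM in flow-through (difference 3.13 ± 0.64), and Sdc2, a membrane heparan sulfate proteoglycan, differed by 1.97 ± 0.50. Without animal 9874 the permissive count was 3, and Sdc2 lost its call without animal 9874 or 9843. The 2 lower genes were L1cam, an adhesion protein of axons (-1.99 ± 0.46), and Igf1, a growth factor made by macrophages (-1.88 ± 0.30). L1cam lost its call without animal 9874.

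Metallothioneins, small proteins that bind zinc and copper, had the highest levels per length in HA IP. In the authors' normalised FPKM (reads scaled for gene length and library size), Mt1 ranked 1 at 1443 ± 419 (SD, n = 4) and Mt2 ranked 2 at 953 ± 212, ahead of Gfap at rank 12 with 170 ± 52.8. Flow-through held 136 ± 25.8 of Mt1 and 89.3 ± 17.9 of Mt2 on that scale, where Lyz2 ranked 2 with 499 ± 333. In CPM, Mt1 stood at 27346, 23111, 15582 and 16698 in HA IP and at 2017, 2579, 1784 and 2496 in flow-through. Mt2 had 17181, 15216, 11643 and 12064 CPM against 1502, 1874, 1086 and 1538 CPM. Neither overlapped, and the differences were 3.19 ± 0.16 and 3.23 ± 0.14 (adjusted p = 2e-09 and 1.15e-09, edgeR), or 3.47 and 3.50 with the remainder. Mt1 and Mt2 are close copies, and how reads that fit both were counted is not given in the sources used here.

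Mt3, the brain form, was higher by 2.32 ± 0.42, with 409, 56.5, 132 and 64.8 CPM in HA IP and 100.8, 15.0, 19.9 and 10.8 CPM in flow-through. The ranges overlapped through animal 9935, which was high in both fractions. Gsta4, a glutathione transferase that clears lipid aldehydes, differed by 3.32 ± 0.71. Of 12 metallothionein and glutathione genes tested, 6 were called higher and 0 lower, with a median of 1.75 (2.00 with the remainder).

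The Mt2 promoter, chr8:94172368-94172647 on the plus strand of GRCm38.p6 (RefSeq), is shown because it holds the core of the metal response element, written TGCACNC or TGCGCNC, in 4 places. Capitals mark them: TGCACCC and TGCGCTC, and, read in the reverse direction, GTGTGCA and GTGCGCA.
Mt2: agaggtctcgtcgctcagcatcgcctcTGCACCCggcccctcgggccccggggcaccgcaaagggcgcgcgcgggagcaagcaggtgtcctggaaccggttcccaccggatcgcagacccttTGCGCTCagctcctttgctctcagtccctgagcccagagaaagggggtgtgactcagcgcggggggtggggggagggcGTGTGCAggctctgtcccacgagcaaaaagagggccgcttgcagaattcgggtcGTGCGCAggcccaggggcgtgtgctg
Searched on both strands, these letters lie in 6 of the 10 windows of the metallothionein and glutathione list (Mt1, Mt2, Mt3, Gstm1, Gstm5 and Gclm) and in 6909 of 27025 windows overall (25.6%).

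Of 20 lipid and cholesterol genes tested, 10 were called higher and 1 lower, with 9 not called and a median of 1.13 (1.43 with the remainder). Leaving out 1 animal left 8 to 10 higher. Fads2, a fatty acid desaturase, had 308, 372, 217 and 164 CPM in HA IP and 60.5, 15.0, 9.97 and 29.3 CPM in flow-through, a difference of 3.32 ± 0.45 (adjusted p = 0.000105, edgeR). Dbi, an acyl-CoA binding protein outside that list whose peptide acts on GABA receptors, had 3108, 3641, 1986 and 2755 CPM against 303, 240, 319 and 409 CPM (difference 3.15 ± 0.23). Neither gene overlapped between fractions.

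Apoe, the main lipid carrier made by astrocytes and by lipid-laden macrophages, was the 1 gene of that list called lower. It had 4856, 10082, 6487 and 4635 CPM in HA IP and 5425, 11840, 12739 and 9311 CPM in flow-through, lower in each animal but with overlapping ranges. The difference was -0.59 ± 0.16 (adjusted p = 0.0173, edgeR) and -0.96 with the remainder. Its call was lost without animal 9843 or 9596 and without the block (adjusted p = 0.26 without it). Apod, another lipid carrier, differed by 1.24 ± 0.18 in the opposite direction. Abcg1, Abca1 and Cyp51 of the lipid list also had negative estimates (-0.80, -0.60 and -0.17) and were not called.

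Precursor genes of the oligodendrocyte lineage were mostly higher in HA IP. Of 12 precursor genes tested, 8 were called higher and 0 lower, and the median of 2.38 (2.64 with the remainder) stood beside 2.19 for the astrocyte identity list and 0.64 for myelin genes, with no test between lists. Olig1, a transcription factor of the lineage, had 1688, 1973, 1609 and 1857 CPM in HA IP and 212, 345, 256 and 301 CPM in flow-through. The fractions did not overlap, and the difference was 2.68 ± 0.20 (adjusted p = 1.83e-07, edgeR). Pdgfra, the receptor that marks precursors, had 235, 222, 232 and 164 CPM against 10.1, 67.5, 19.9 and 27.8 CPM (2.75 ± 0.44). Neu4, a sialidase, differed by 2.98 ± 0.86, and lost its call without animal 9935, 9843 or 9596. Leaving out 1 animal left 6 to 8 of the list called. Cspg5 and Ptprz1 are on this list and among the proteoglycans, and astrocytes express both.

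Bmp4, a growth factor of the bone morphogenetic family, was among the larger differences of all genes. It had 23.5, 128, 68.8 and 86.0 CPM in HA IP and 0, 3.75, 3.32 and 3.09 CPM in flow-through, a difference of 4.76 ± 0.71 (adjusted p = 0.000277, edgeR) that rests on 4 flow-through counts.

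Of 14 myelin genes tested, 4 were called higher, Mbp, Mag, Cldn11 and Myrf, and 0 lower, while 10 were not called, with a median of 0.64 (0.75 with the remainder). Mbp, myelin basic protein, had 32121, 27840, 37197 and 20756 CPM in HA IP and 18957, 15340, 17224 and 15942 CPM in flow-through, with no overlap and a difference of 0.78 ± 0.12 (adjusted p = 0.00029, edgeR). Cldn11, the claudin of myelin, differed by 1.08 ± 0.24, Mag by 1.36 ± 0.28 and Myrf, the myelin regulatory factor, by 0.87 ± 0.24. Without animal 9843 among myelin genes only Mbp and Cldn11 were called, since Mag and Myrf lost theirs. The part that untagged oligodendrocyte RNA has in these levels was not tested.

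Other genes among the 12 largest called differences without overlap were Fam181b, Wwc1, Scrg1, Haus1, Lix1l, Sfrp5, Mybpc1, Brinp2, Hrsp12 and Rgcc. Wwc1, a regulator of Hippo signalling, had 79.6, 275, 95.2 and 72.7 CPM in HA IP and 0, 3.75, 3.32 and 3.09 CPM in flow-through (difference 5.22 ± 0.64, adjusted p = 4.37e-05, edgeR). Fam181b, a gene of little known function, had 228, 72.4, 180 and 105 CPM against 10.1, 3.75, 0 and 3.09 CPM (5.25 ± 0.65). Flow-through held 4 counts of each. Lix1l, with 82.9 to 243 CPM against 0 to 16.6 CPM, differed by 4.43 ± 0.63. Haus1 and Mybpc1 had 2 and 3 flow-through counts, and their log2 ratios were 4.91 (exact 95% interval for counting error 3.05 to 7.97) and 4.51 (2.95 to 6.79). Genes with so few flow-through counts, Sox2, Bmp4, Wwc1 and Fam181b among them, passed the filter on low counts only through the deeper HA IP libraries. Their p-values and places among the largest differences are to be read with that selection.

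Genes of microglia and macrophages were lower in HA IP without exception among those tested. All 19 of 19 tested were called lower, against 6.93% of all genes, and each was lower in every animal. Their median was -1.86, close to the lowest values the shared counts allow, and -3.86 with the remainder, where 19 of 19 were again called. Their summed level was 4907 to 16065 CPM in HA IP, 873 to 6005 CPM in the remainder and 21226 to 50469 CPM in flow-through. Leaving out 1 animal left 18 or 19 called with deposited counts and 19 with the remainder.

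Lyz2, the macrophage lysozyme, had 1798, 3674, 9081 and 2568 CPM in HA IP and 8188, 14141, 29600 and 10357 CPM in flow-through. Animal 9843 was the highest in both fractions, and its HA IP exceeded the flow-through of animal 9935. The remainder was 381, 1671, 952 and 215 CPM, below every flow-through library. The log2 difference was -1.96 ± 0.13 (adjusted p = 3.47e-08, edgeR) as deposited and -4.54 ± 0.32 (adjusted p = 1.31e-09) with the remainder.

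Tyrobp, a signalling adaptor of myeloid cells, stood at -2.04 ± 0.25 as deposited and at -5.33 ± 0.55 with the remainder, in which its levels were 2.09, 81.1, 10.4 and 4.72 CPM against 282, 802, 728 and 333 CPM in flow-through. Animal 9874 had the most Tyrobp left. C1qa, a subunit of the first complement component, had 527, 1218, 826 and 494 CPM in HA IP, 168, 785, 210 and 76.4 CPM in the remainder and 2128, 3407, 2379 and 1879 CPM in flow-through. Its differences were -1.73 ± 0.18 and -3.49 ± 0.35. Cd14 kept 2 counts in the remainder against 181 in flow-through, a log2 ratio of -8.39 (exact 95% interval for counting error -11.4 to -6.52).

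Narrower lists of phagocyte genes were lower in most members tested, and they share genes with the one above. Of 6 homeostatic microglia genes tested, 5 were called lower with each calculation, among them Tmem119 (-2.01 ± 0.38 as deposited, -4.81 ± 0.80 with the remainder) and the fractalkine receptor Cx3cr1 (-1.67 ± 0.31 and -3.14 ± 0.51). Of 6 infiltrating phagocyte genes, of which Lyz2, Ms4a7 and Gpnmb are also on the broader list, 5 were called lower. Ccr2, Arg1, Ms4a4c and Fabp4, which are more particular to incoming cells, were not tested. Lower were Spp1, or osteopontin (-1.81 ± 0.19 and -3.64 ± 0.33), Lgals3, or galectin 3 (-1.33 ± 0.32 and -2.45 ± 0.60), and Ms4a7 (-1.86 ± 0.52 and -3.88 ± 0.98). Without animal 9843, 3 of the infiltrating genes were called as deposited, and Lgals3 and Ms4a7 were not.

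The Lyz2 promoter, chr10:117282243-117282522 on the minus strand of GRCm38.p6 (RefSeq), is shown beside those of Gfap and Agt because it holds AGGAAGT, a core bound by ETS factors such as the myeloid regulator PU.1. Capitals mark it, on the other strand, as ACTTCCT, 100 bases before the start.
Lyz2: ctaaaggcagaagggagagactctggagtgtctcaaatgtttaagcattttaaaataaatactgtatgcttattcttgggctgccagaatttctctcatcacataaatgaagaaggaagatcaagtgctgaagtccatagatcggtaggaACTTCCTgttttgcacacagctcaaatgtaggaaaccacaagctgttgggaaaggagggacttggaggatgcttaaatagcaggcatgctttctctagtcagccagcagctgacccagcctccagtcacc
Searched on both strands, AGGAAGT lies in 6 of 15 microglia and macrophage windows, in 2 of 27 astrocyte identity windows and in 2587 of 27025 windows overall (9.57%). The match in Gfap overlaps its TTCNNNGAA match.

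Immune signalling genes were called in both directions, and many of those tested were not called. Of 10 chemokines and cytokines tested, 4 were called lower, Ccl6, Ccl9, Cxcl16 and Tgfb1, and 0 higher. Ccl9, a myeloid chemokine, had 119, 51.2, 62.2 and 30.1 CPM in HA IP and 625, 326, 219 and 130 CPM in flow-through, and its remainder was 8.38, 0, 0 and 0 CPM. Its difference was -2.25 ± 0.31 as deposited (adjusted p = 0.000117, edgeR). Ccl6 had 0 counts in all 4 remainders and 69 in flow-through, so that it was at least 85.4-fold lower against a floor of 3 counts over the group. Ccl6 and Tgfb1 lost their calls as deposited without animal 9874.

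C3, the central complement component, was the 1 complement gene called higher. It had 147, 416, 228 and 153 CPM in HA IP and 70.6, 86.2, 99.7 and 27.8 CPM in flow-through, with no overlap and a difference of 1.79 ± 0.36 (adjusted p = 0.00349, edgeR), and of 1.98 with the remainder. The C1q genes and C3ar1, 4 of the 9 complement genes tested, were lower. Without animal 9874 the remainder lost the call of C3 (adjusted p = 0.061).

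Of 10 antigen presentation genes tested, 4 were lower and 0 higher, and 5 were lower with the remainder. Cd74, the class II invariant chain, had 21.7, 132, 69.7 and 34.7 CPM in HA IP, 8.38, 83.8, 0 and 0.944 CPM in the remainder and 80.7, 379, 246 and 147 CPM in flow-through (-1.81 ± 0.34 and -4.74 ± 0.89). Most of what the remainder held was in animal 9874. H2-Aa, a class II chain, differed by -1.98 ± 0.54 and lost its call without animal 9874, 9843 or 9596. Without animal 9874, 2 of the list were called.

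Of 12 interferon response genes, 3 were higher (Ifit3, Gbp2 and Gbp3) and 1 lower (Zbp1), against 7.62% and 6.93% of all genes tested. Ifit3 had 192, 510, 110 and 352 CPM in HA IP and 10.1, 97.4, 9.97 and 126 CPM in flow-through, a difference of 2.42 ± 0.39 (adjusted p = 0.000623, edgeR), and animals 9874 and 9596 were high in both fractions. Zbp1, a nucleic acid sensor, differed by -1.82 ± 0.55. Without animal 9874 or 9843 only Ifit3 of this list was called, and Zbp1 lost its call whichever animal was left out.

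Neuronal genes were lower in HA IP. Of 14 tested, 11 were called lower and 0 higher, with a median of -1.71, and 10 of 13 with a median of -2.98 with the remainder. Snap25, a synaptic vesicle fusion protein, had 145, 121, 252 and 275 CPM in HA IP, 37.7, 17.6, 184 and 79.3 CPM in the remainder and 625, 671, 419 and 927 CPM in flow-through. Its differences were -1.77 ± 0.28 (adjusted p = 0.000533, edgeR) and -3.51 ± 0.52 (adjusted p = 5.09e-05). Slc17a6, a vesicular glutamate transporter, and Slc32a1, the vesicular transporter of inhibitory neurons, differed by -2.06 ± 0.55 and -2.07 ± 0.56. The 3 genes were lower in every animal. With deposited counts 7 neuronal genes were called without animal 9874 or 9596, 6 without animal 9843 and 8 without animal 9935, and with the remainder 8 to 10. Slc32a1 lost its call as deposited whichever animal was left out, and Slc17a6 without animal 9874, 9843 or 9596.

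Cdr1, a gene transcribed almost wholly from its antisense strand in neurons, had 993, 701, 1120 and 1134 CPM in HA IP, 73.3, 16.9, 135 and 93.9 CPM in the remainder and 5183, 4374, 3608 and 4575 CPM in flow-through. Reads from the 2 strands cannot be told apart without strand information. Rpph1, the RNA of ribonuclease P and not a messenger RNA, had 565, 251, 536 and 146 CPM in HA IP, 83.8, 10.8, 47.0 and 1.42 CPM in the remainder and 2743, 1540, 1771 and 625 CPM in flow-through. Both RNAs stood at -2.18 as deposited, and at -6.06 ± 0.42 and -6.28 ± 0.49 with the remainder (adjusted p = 1.23e-09 and 9.23e-09, edgeR).

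Other cell types gave few tested genes. Of 4 fibroblast and pericyte genes tested, 2 were lower as deposited, Col1a1 (-1.72 ± 0.48) and Col3a1 (-1.98 ± 0.57), both collagen chains, and 3 with the remainder. Both lost their calls without animal 9874, 9843 or 9596 as deposited. Of 2 Schwann cell genes tested, Pmp22, a protein of Schwann cell myelin, differed by -0.93 ± 0.28. With 1 animal left out, it kept its call only without animal 9874. The other, Sox10, also on the precursor list, stood at 1.14 and was not called (adjusted p = 0.051, edgeR). No lymphocyte, endothelial or blood gene had the counts to be tested. Foxj1, the ciliogenesis factor of ependymal cells, was not called (1.46 ± 0.60, adjusted p = 0.116, edgeR), and neither were 4 of 5 cell cycle genes. The fifth, Top2a, a topoisomerase of dividing cells, differed by 2.33 ± 0.65 (adjusted p = 0.0253), but not with the remainder (adjusted p = 0.0536), nor without animal 9874 or 9843.

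**Figure D4:**
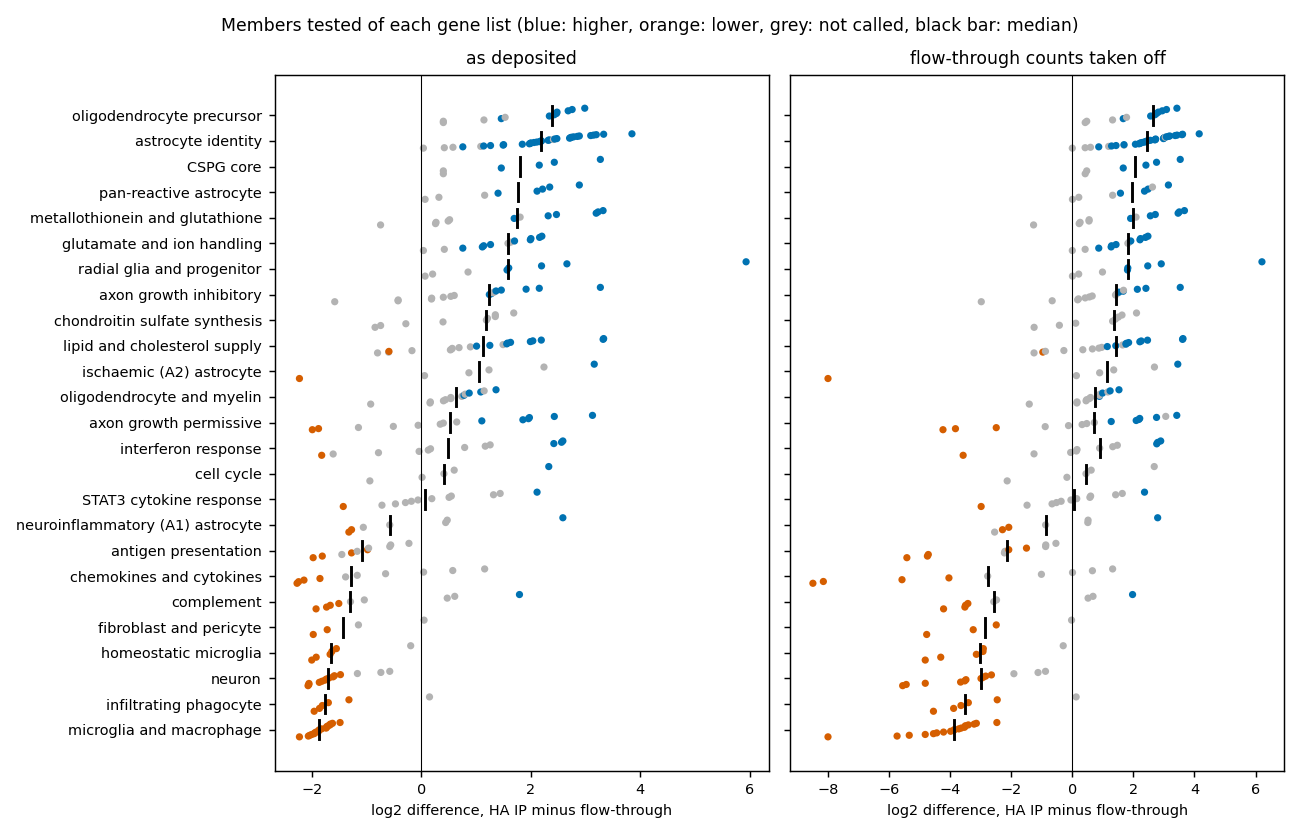
Log2 difference of HA IP minus flow-through for the members tested of each gene list with 4 or more of them, ordered by median, as deposited (left) and with the remainder (right). Points are genes, coloured where called, and black bars are medians. Astrocyte identity genes lie around 2.19, and microglia and macrophage genes around -1.86 on the left and -3.86 on the right.

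Of 15 pairs of related genes with both tested, 5 had both called in the same direction, 2 had both called in opposite directions and 8 had 1 gene called. Sparcl1 and Sparc, related matrix proteins, were both higher, at 2.72 and 2.10. Aldoc differed by 2.47 and the widely expressed aldolase Aldoa by -0.33 ± 0.31 (not called), with 322, 297, 224 and 251 CPM in HA IP and 141, 543, 379 and 350 CPM in flow-through. Timp1 differed by 2.11 and Timp2, a protease inhibitor of many cells, by -1.15 ± 0.19, with 485, 1048, 761 and 581 CPM against 1482, 1713, 1555 and 1388 CPM. Cst3, cystatin C, differed by 0.27 ± 0.17 (not called) and Cst7, a cystatin of activated microglia, by -2.12 ± 0.28 (-5.81 with the remainder). Differences between the members of a pair were not tested.

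Over the 8 libraries, the genes whose log2 CPM most resembled that of Gfap, among 5957 with a mean of at least 5, were Cntn1, Mt1, Ckb, Mt2 and Clu, with Pearson's r of 0.995, 0.989, 0.987, 0.986 and 0.985. These libraries share animals and fractions, so the values are a description. Cntn1, an adhesion protein of neural cells, had 653, 620, 435 and 463 CPM in HA IP and 111, 71.2, 76.4 and 100 CPM in flow-through (2.58 ± 0.27). Ckb, the brain creatine kinase, had 10268, 7095, 4027 and 6187 CPM against 1271, 870, 774 and 1226 CPM (2.68 ± 0.17). In both, as in Gfap, animal 9935 had the highest HA IP level.

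The difference between fractions was then compared across conditions in 1 edgeR model of all 22 libraries with animals as blocks. Of 13730 genes, 1847 (13.5%) differed between injured and uninjured wild type, 922 (6.72%) with a greater and 925 (6.74%) with a lesser HA IP minus flow-through difference in injured cord. With the remainder 1595 of 13546 (11.8%) did, 557 (4.11%) greater and 1038 (7.66%) lesser. Uninjured HA IP libraries had 26934866 to 51571785 counts outside the ribosomal rows, and Rn45s held 12.6% to 26.7% of their counts against 89.0% to 96.2% in injured ones, so injury, depth and this share cannot be told apart. With libraries thinned to equal depth within each fraction, 658 genes were called.

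Astrocyte genes were less enriched in injured than in uninjured cord. Of 35 identity genes, 24 had a lesser difference in injured cord and 0 a greater one, with a median of 2.25 against 3.99, and the remainder gave the same counts. Gfap differed by 3.03 in injured and 5.11 in uninjured cord, a change of -2.08 ± 0.19 (adjusted p = 5.87e-07, edgeR). Slc4a4 changed by -2.397 ± 0.28. Of 13 glutamate and ion handling genes 11 had a lesser difference and 0 a greater one.

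The lipid genes Apoe and Lpl and the lectin Lgals3 had positive estimates in uninjured cord and negative ones in injured cord. Apoe stood at -0.45 in injured and 4.99 in uninjured cord, a change of -5.45 ± 0.26 (adjusted p = 8.33e-11, edgeR). Lpl, or lipoprotein lipase, stood at -1.30 and 4.42 (-5.72 ± 0.47), and Lgals3 at -1.19 and 3.74 (-4.93 ± 0.57). With thinned libraries the call of Lgals3 was lost (adjusted p = 0.24). The negative value of Apoe in injured cord was not itself called in this model. In the fit of the 8 libraries Lpl was called lower, but not once any 1 animal was left out.

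Oligodendrocyte genes went the other way. Of 14 myelin genes 12 had a greater difference in injured cord (11 with the remainder) and 0 a lesser one, with a median of 0.73 against -0.65. Mag stood at 1.503 in injured and -0.69 in uninjured cord, a change of 2.20 ± 0.30 (adjusted p = 6.2e-05, edgeR), and Myrf at 1.02 and -0.83 (1.85 ± 0.26). Of 12 precursor genes 5 had a greater difference and 1 a lesser one, and 3 and 1 with the remainder. Bmp4 stood at 4.93 and 0.33 (4.603 ± 0.66), although not with thinned libraries (adjusted p = 0.064). Of 20 microglia and macrophage genes 1 had a lesser difference as deposited and 8 with the remainder.

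Against the injured STAT3-LoxP group, 51 of 13730 genes (0.371%) differed as deposited, 34 (0.248%) with a greater and 17 (0.124%) with a lesser difference in wild type. With the remainder 23 of 13546 (0.17%) did, 8 (0.0591%) greater and 15 (0.111%) lesser. Without the block 3 were called as deposited. The STAT3-LoxP HA IP libraries had 2496641 to 17348247 counts outside the ribosomal rows and an Rn45s share of 52.2% to 89.2%, against 620265 to 2691494 counts and 89.0% to 96.2% in wild type, so genotype, depth and this share cannot be told apart. With libraries thinned to equal depth 24 genes were called. C3 stood at 1.95 in injured wild type and -1.07 in the STAT3-LoxP group, a change of 3.02 ± 0.38 (adjusted p = 0.000726, edgeR), and of 3.68 ± 0.48 (adjusted p = 0.00218) with the remainder. Mt1 stood at 3.33 and 2.18, a change of 1.15 ± 0.21 (adjusted p = 0.0285). Cd74 stood at -1.68 and 0.12 (-1.80 ± 0.28, adjusted p = 0.00708) and H2-Aa at -1.84 and 0.02 (-1.86 ± 0.40, adjusted p = 0.044). H2-Aa lost its call without animal 9874, 9843 or 9596. Without the block none of the 4 was called (adjusted p = 0.055 for C3). Both comparisons use the same injured wild-type libraries.

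**Figure D5:**
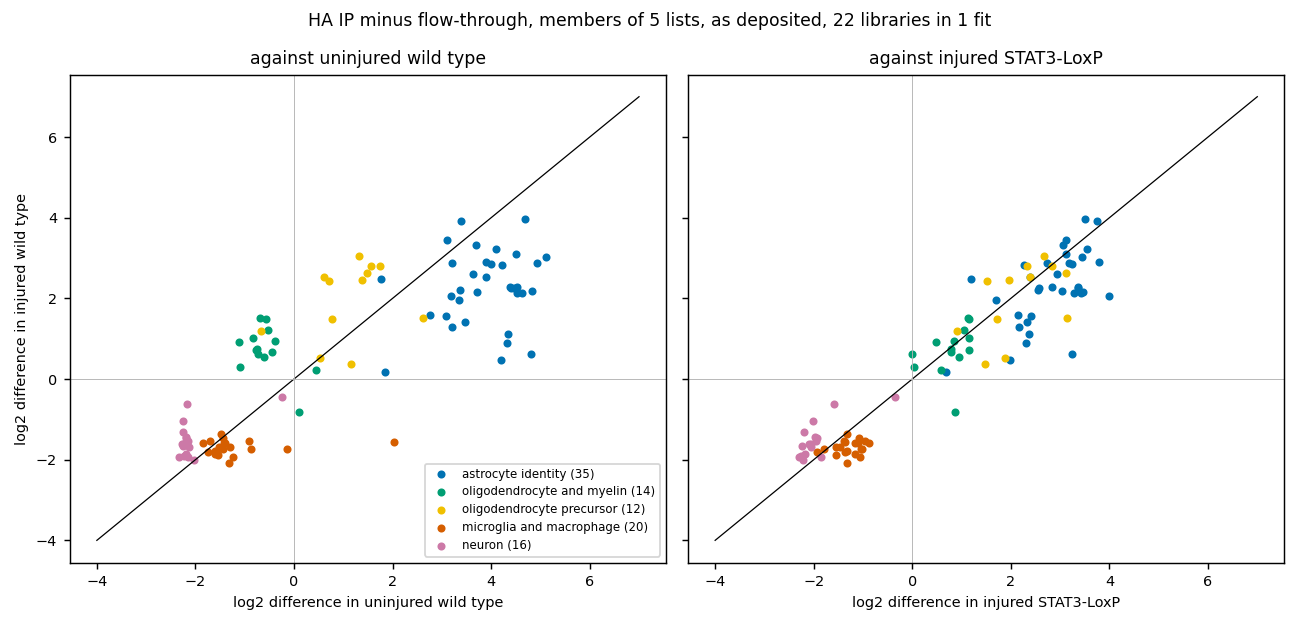
Log2 difference of HA IP minus flow-through in injured wild type (vertical) against uninjured wild type (left) and the injured STAT3-LoxP group (right), 1 point per gene of 5 lists, with the line of equal values. On the left most astrocyte identity genes lie below the line and 12 of 14 myelin genes were called above it. On the right 1 of 35 astrocyte identity genes and 0 of 14 myelin genes were called.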

How the data were processed

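The authors deposited 5 tables, of which 3 were used; each holds raw counts of reads per gene for the libraries of a pair of groups, and per the file headers normalised FPKM and log2 fold changes with p-values. Per the submitters' processing notes, CASAVA 1.8.2 and edgeR were used with build mm10; the sources used here do not name an aligner, annotation or strand setting. Among the genes of the authors' deposited table, 1981 had an FDR under 0.05, 1337 higher in HA IP. Another 138 per-sample columns were not used. Counts were fitted with edgeR 4.0.16 in R 4.3.3 (quasi-likelihood, animal as a block, TMM, filterByExpr, Benjamini-Hochberg), with ribosomal rows set aside; DESeq2 1.42.0 was an alternative. On simulated data for the comparison of 7666 genes, 61 of 100 genes changed by 2 on the log2 scale and 3 of 100 changed by 1 were recovered, with 2 false calls. The simulated fractions were drawn without shared counts, so recovery and false calls with the deposited counts may differ. Animals pair the fractions because both come from the same tissue. Deviations from the fraction means correlated at 0.28 to 0.35 within animals, which shared counts raise, and at -0.16 to -0.01 between animals. With the remainder these values were 0.03 to 0.11 within and -0.07 to 0.02 between animals. No 2 libraries of a group agreed within sampling noise. Named genes were the largest called differences without overlap, the largest called members of each list, listed markers and family pairs. For the comparisons of conditions, only genes called in them were named. Some genes that this rule picks are not reported here. Members and lists were chosen with earlier results of these data known.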

Additional observations from a re-analysis of the deposited data

Results flagged for a closer look

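In 6 of 222 groups of 4 within-animal log2 differences (111 genes, as deposited and with the remainder), 1 animal stood apart from the other 3 by Dixon's ratio, and chance alone marks about 1 in 20. Animal 9935 was apart in Cspg4 (5.15, others -0.47 to 0.45), Gbp2 (1.07, others 2.399 to 2.64, and 1.16 with the remainder, others 2.70 to 2.90), Tnr (1.65, others 1.88 to 1.89) and, with the remainder, H2-T23 (-5.54, others -1.86 to -1.29). The flow-through of animal 9935 held no Cspg4 count, and 3 counts lie at 32.7 CPM there. The value of 5.15 therefore rests on a level under that floor. Animal 9874 was apart in Tyrobp with the remainder (-3.28, others -5.89 to -5.50).

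Genes were named for the comparisons of conditions only if called in them, so their number was fixed by that choice. Over all 13730 genes tested, 1847 (13.5%) were called against uninjured wild type. Between injured and uninjured wild type, the difference of HA IP minus flow-through differed by an interaction test in 21 named genes. It was lesser in injured cord for Lpl (-5.72), Apoe (-5.45), Lgals3 (-4.93), C3 (-2.42), Slc4a4 (-2.40), Acsbg1 (-2.14), Gfap (-2.08) and H2-D1 (-1.32). It was greater for Bmp4 (4.603), Haus1 (4.41), Avpi1 (3.58), S1pr3 (3.00), Chpf (2.38), Hspb1 (2.35), Tnr (2.27), Mag (2.20), Myrf (1.85), Cldn11 (1.74), Cspg5 (1.72), Olig1 (1.06) and Mt2 (0.69). Mt2 was not called with the remainder (adjusted p = 0.0853, edgeR), and Lgals3, Bmp4, Haus1, Avpi1, S1pr3, Chpf, Hspb1 and Tnr were not called with thinned libraries. Without the block Cspg5, Hspb1, Mt2, Olig1 and S1pr3 were not called. Haus1 rests on 2 flow-through counts in injured wild type.

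Between injured wild type and the injured STAT3-LoxP group it was greater in wild type for Haus1 (5.85), Avpi1 (3.32), C3 (3.02), Mt1 (1.15) and Mt2 (0.88), and lesser for H2-Aa (-1.86) and Cd74 (-1.80). These 7 genes too were named because they were called, as were 51 of all 13730 genes tested (0.371%). With the remainder Avpi1 (adjusted p = 0.106, edgeR) and Mt2 (adjusted p = 0.117, edgeR) were no longer called. With thinned libraries Avpi1, Mt2 and H2-Aa were not called, and without the block only Haus1 was. Avpi1 also lost its call without animal 9874 or 9596, and Mt2 without animal 9935 or with median-ratio scaling. H2-Aa lost it without animal 9874, 9843 or 9596. Of 63 values of the 7 genes under the alternatives, 40 kept direction and call and 23 lost the call.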

How the results depend on the processing

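The flow-through depth of 91626 to 615302 counts limits genes of low level, and the shared counts limit how far a gene can fall. Genes called in injured wild type numbered 1115 (584 higher, 531 lower). Without the animal block they numbered 565 (358 higher, 207 lower), with all 22 libraries in 1 fit 3041 (1829 and 1212), and with no filter on low counts 315 were lower. Without 1 animal they numbered 545 to 861 (318 to 480 higher, 227 to 398 lower), and with the remainder 661 to 789 (708 without animal 9874, 723 without animal 9596), of which 278 to 366 were higher (295 and 356) and 367 to 423 lower. Median-ratio scaling, DESeq2, ribosomal rows kept, thinned HA IP and the other remainder settings gave 931 to 1418. Against uninjured wild type (1847, 922 greater, 925 lesser), the fit without the block gave 713 (327 and 386), thinned libraries 658 (341 and 317) and the remainder 557 greater; leaving out 1 animal gave 1799 to 2020. Against the STAT3-LoxP group (51, 34 greater, 17 lesser), the fit without the block gave 3 (2 and 1), thinning 24 (13 and 11), the remainder 23 (8 greater), the remainder without the block 21 (7 greater) and leaving out 1 animal 54 to 117 (44 to 94 greater, 10 to 30 lesser). The cause was not tested. Under the alternatives, 172 of 189 values of named genes kept direction and call against uninjured wild type. Against the STAT3-LoxP group 40 of 63 did. The values that follow are for the comparison of fractions in injured wild type. Of 2106 values of 111 named genes under the alternatives, 1906 kept direction and call, 189 lost the call, 6 gained it and 5 changed sign, none of them called: Cspg4 without animal 9935 (-0.037, and -0.0454 with the remainder; up to 0.838 without animal 9843) and Vim without animal 9596 (-0.208, and -0.266 with the remainder; up to 0.201 without animal 9843) and with the remainder without the block (-0.0301).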
